A study of Mus musculus with 6 samples.

Results

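A segment of mouse chromosome 3 that carries Txnip and Mcl1 was examined gene by gene, in chromosomal order, in Y-KO and control bladder cancer cells. Its members were the protein-coding genes of chromosome 3 with a start between positions 94443318 and 97923276 (GRCm38 coordinates, as in the deposited table) and at least 60 counts summed over the 6 libraries, leaving out genes whose names begin with Psm, Hist2, Cts, Itg, Mrp or Zfp. This rule gave 57 of the 54532 genes in the table, and all 57 passed the low-count filter that left 12907 genes for the fit. The interval held 192 genes of every kind and 99 protein-coding ones, of which 24 were under 60 counts and 18 were left out by name.

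The cells were MB49, a line from a bladder cancer of a male mouse, edited with CRISPR, and their poly-A RNA was sequenced as stranded libraries. The Y-KO group (CRISPR Y-KO, 3 libraries) was set against the Y-Scr group (CRISPR Y-Scr, 3 libraries), whose cells carried a non-targeting guide RNA. Both groups share the parental line and batch 1, and the protocol given for every library has transduced cells sorted on the fluorescent marker tRFP and single cells grown into clones. Which guide made Y-KO was not known here, and the labels list both a cell line and, as tissue, a tumor. Whether the 3 libraries of a group came from separate cultures or clones is not stated, so the spread behind the p-values is that between these libraries and may be technical. If each group came from 1 clone, a difference between clones cannot be told apart from the loss of Y.

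The libraries held 15698510 to 18327877 counts in Y-KO and 15907451 to 24633158 counts in Y-Scr. The Y genes Ddx3y, Eif2s3y, Kdm5d and Uty together had 0, 0 and 0 counts in the 3 Y-KO libraries, where a count of 0 allows up to 3 counts, and 6747, 7119 and 8860 counts in the 3 Y-Scr libraries. Among 6 immune markers, Ptprc and Cd3e were at 0 counts in every library, and the summed level of the 6 was 0.560 to 1.19 CPM (counts relative to the scaled library total) in Y-KO and 0.886 to 1.504 CPM in Y-Scr. The 3 endothelial markers summed to 0.227 to 0.591 CPM in Y-KO and 0.302 to 0.752 CPM in Y-Scr. The 4 fibroblast markers summed to 15.7 to 18.2 CPM in Y-KO and 10.3 to 11.7 CPM in Y-Scr, most of it Pdgfra (14.4 CPM in Y-KO and 8.68 CPM in Y-Scr) and the rest nearly all Dcn (2.47 CPM in Y-KO and 2.07 CPM in Y-Scr), with Pdgfrb at 0. Of 11 urothelial markers, Krt8 and Krt18 made up nearly all of a sum of 4009 to 4315 CPM in Y-KO and 3355 to 3722 CPM in Y-Scr, and Epcam, Krt20 and Upk3a were at 0. Within that list Krt8 rose (2816 CPM in Y-KO and 2188 CPM in Y-Scr, log2 change 0.36, adjusted p = 7.14e-05) and the urothelial transcription factor gene Gata3 fell (2.81 CPM in Y-KO and 7.80 CPM in Y-Scr, log2 change −1.48, adjusted p = 1.41e-05). The part of these markers in the values below was not tested.

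TXNIP is an arrestin-fold protein that binds and inhibits thioredoxin and limits glucose uptake, and its gene is a classic target of the glucose-sensing factor pair MondoA and MLX. MCL1 is a short-lived member of the BCL2 family that holds back mitochondrial cell death by binding BAK and the BH3-only proteins. Many genes of the segment have their human counterparts on the long arm of chromosome 1, in a region that is often gained in cancers, and these genes share a position and not a pathway.

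Promoter sequences were taken from RefSeq on build GRCm38.p6, each with 250 bases before and 50 bases after the transcription start, and are shown for 4 of the 6 members that were at least 2-fold lower in Y-KO (Txnip, Golph3l, Ensa, Mcl1) and for Rnf115, which lies just beyond a stretch of 28 lower genes. Capitals mark matches to 5 motifs, searched on both strands. These were the CCAAT box, which reads ATTGG where it lies on the other strand; the E-box, spelled CACGTG; a spaced pair of E-box-like elements, spelled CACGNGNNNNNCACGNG; the forkhead core, spelled GTAAACA; and the TATA box, spelled TATAAA.
Txnip, chr3:96557707-96558006, plus strand: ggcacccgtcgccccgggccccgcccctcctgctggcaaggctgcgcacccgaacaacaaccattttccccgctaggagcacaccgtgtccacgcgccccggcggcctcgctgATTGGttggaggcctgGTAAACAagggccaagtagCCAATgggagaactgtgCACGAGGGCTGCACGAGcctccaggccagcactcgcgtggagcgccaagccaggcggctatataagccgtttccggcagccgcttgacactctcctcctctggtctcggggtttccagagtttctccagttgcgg
Golph3l, chr3:95588684-95588983, plus strand: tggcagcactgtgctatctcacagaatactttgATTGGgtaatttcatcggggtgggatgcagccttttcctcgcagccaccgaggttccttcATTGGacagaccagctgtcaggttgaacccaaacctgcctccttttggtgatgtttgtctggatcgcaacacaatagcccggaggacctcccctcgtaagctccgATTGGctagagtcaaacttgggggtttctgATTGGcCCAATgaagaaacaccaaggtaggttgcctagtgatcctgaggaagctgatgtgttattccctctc
Ensa, chr3:95624730-95625029, plus strand: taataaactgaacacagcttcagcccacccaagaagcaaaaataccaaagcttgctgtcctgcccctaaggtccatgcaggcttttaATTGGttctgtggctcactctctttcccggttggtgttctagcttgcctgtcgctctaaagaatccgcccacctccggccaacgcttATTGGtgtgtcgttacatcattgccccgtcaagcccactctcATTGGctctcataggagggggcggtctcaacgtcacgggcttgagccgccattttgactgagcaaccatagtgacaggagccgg
Mcl1, chr3:95658471-95658770, plus strand: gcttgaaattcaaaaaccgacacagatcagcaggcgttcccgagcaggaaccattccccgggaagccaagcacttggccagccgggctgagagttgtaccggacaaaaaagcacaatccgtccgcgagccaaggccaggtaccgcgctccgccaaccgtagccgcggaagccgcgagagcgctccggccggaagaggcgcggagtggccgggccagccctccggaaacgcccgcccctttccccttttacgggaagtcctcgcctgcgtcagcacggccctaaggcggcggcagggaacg
Rnf115, chr3:96727361-96727660, plus strand: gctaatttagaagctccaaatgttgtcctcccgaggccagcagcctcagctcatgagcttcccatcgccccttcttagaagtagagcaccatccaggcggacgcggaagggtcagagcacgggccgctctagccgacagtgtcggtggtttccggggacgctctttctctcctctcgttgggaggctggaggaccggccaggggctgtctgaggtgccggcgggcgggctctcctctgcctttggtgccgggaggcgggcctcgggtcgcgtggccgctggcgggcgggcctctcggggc
The Txnip window held the paired element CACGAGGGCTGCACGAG beginning 85 bases before the start, the forkhead core at 121 bases before it, and 2 CCAAT matches. The paired letters are those of the carbohydrate response element bound by MondoA and MLX. Golph3l had 5 CCAAT matches, Ensa had 3, and the Mcl1 and Rnf115 windows had no match to any of the 5 motifs.

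RefSeq windows were matched for 48 of the 57 members; among those without one were Gm16253, Otud7b, Rbm8a, Scnm1, Sf3b4, Snx27, Tuft1 and Vps72. The paired element occurred in 1 of the 48 members (2.08%), Txnip, and in 15 of 27025 genes in all (0.0555%). CCAAT occurred in 24 members (50%), against 41.1% of all genes. The E-box was in 7 members (14.6%, against 8.09% of all genes), the forkhead core in 2 (4.17%, against 4.05%) and the TATA box in 6 (12.5%, against 15.7%). All genes here are the 27025 with a RefSeq window, with no filter on counts, and not the genes of the fit. The members are protein-coding genes with at least 60 counts, so the shares are not of like sets. A match is a description of these letters only.

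The segment was selected on the measured Y-KO and Y-Scr levels of its genes, most of them lower in Y-KO, so the Y-KO minus Y-Scr changes of the members are a description and carry no test. Of the 57 members, 42 had a log2 change below 0 and 15 above 0 (73.7% below 0, where 51% of all genes tested were below 0). The median log2 change over the members was −0.37, with quartiles of −0.66 and 0.00. The median was −0.01 over all genes tested and −0.06 over the other genes of chromosome 3. The 57 genes just before the interval had a median of −0.02 and the 57 just after it −0.05. Past an adjusted p of 0.05 in the edgeR fit were 29 members in the lower direction and 7 in the higher direction, where the fit called 23% of all genes lower, 20.7% higher and 43.6% in either direction; nothing is read from these counts, since the same contrast chose the members. The 7 higher calls became 1 without Y-KO replicate 2, 3 without Y-Scr replicate 2, and 4 without Y-KO replicate 3 or Y-Scr replicate 3. The levels of the groups did not overlap for 42 members (73.7%, where the figure over all genes was 52.9%). At least 2-fold lower were 6 members, and at least 2-fold higher was 1, where the shares over all genes were 4.82% and 1.62%. In bulk RNA, fewer cells that express a gene and less of its RNA per cell cannot be told apart.

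**Figure D1:**
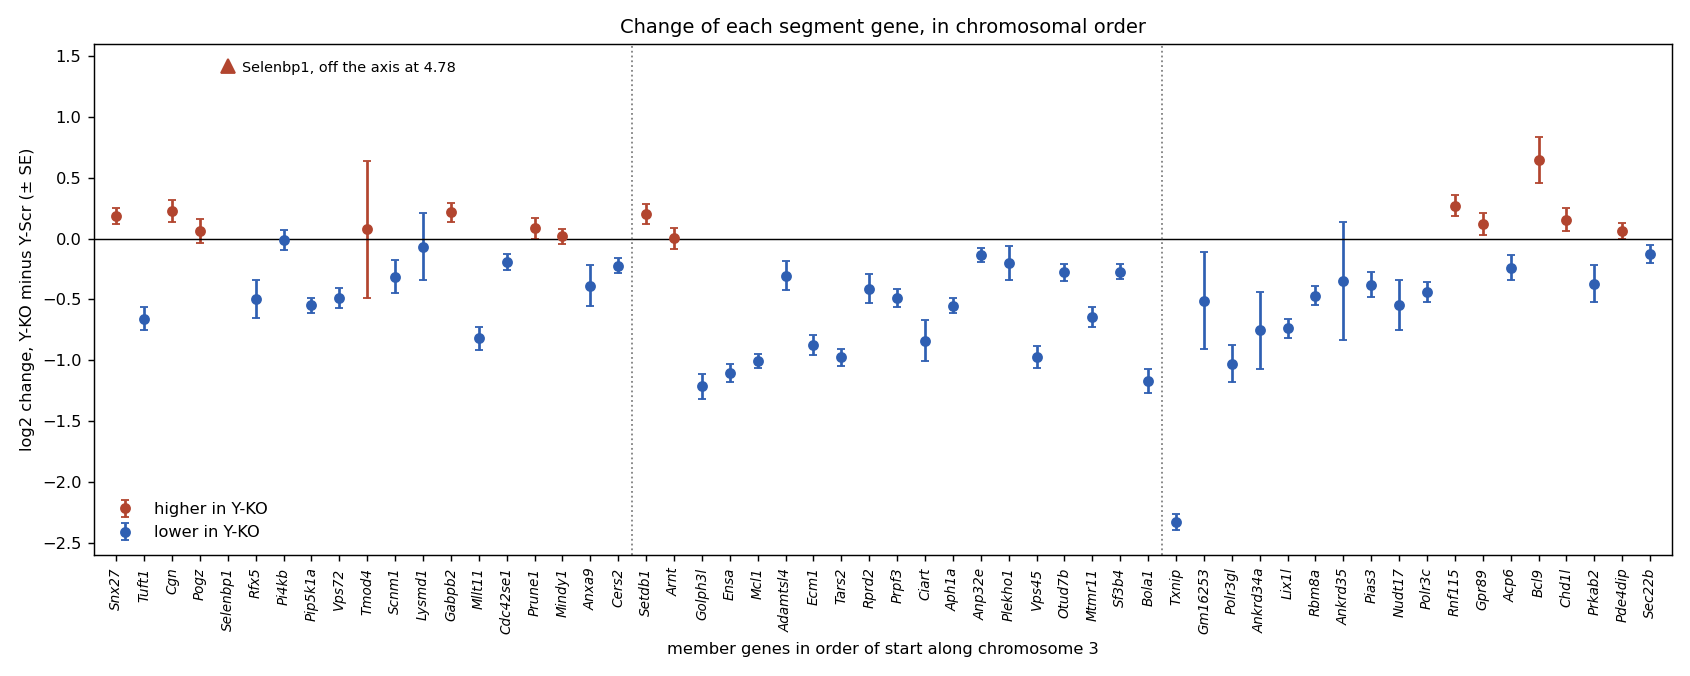
Log2 change, Y-KO minus Y-Scr, of 56 of the 57 member genes (vertical axis, with SE bars from the edgeR fit on 3 libraries per group) in order of start along chromosome 3 (horizontal axis), red above 0 and blue below 0; dotted lines part the 57 members into 3 sets of 19. All genes drawn from Golph3l to Polr3c lie below 0, Txnip lowest at −2.33, Selenbp1 is off the axis at a fitted 4.78 that rests on 3 Y-Scr counts, and genes on both sides of that stretch lie above and below 0.

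In chromosomal order the shift was neither even over the whole segment nor confined to single genes. The first 19 members, Snx27 to Cers2, had a median log2 change of −0.07, with 8 above 0 and 11 below. The next 19, Setdb1 to Bola1, had a median of −0.55, with 2 above 0 and 17 below, and the last 19, Txnip to Sec22b, a median of −0.38, with 5 above 0 and 14 below. Without Selenbp1 and Txnip, the members with the 2 largest changes, the median over the other 55 was −0.37.

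Of the 42 members below 0, 28 formed 1 unbroken stretch of consecutive members, 11 lay before it and 3 after it. It ran from Golph3l (chr3:95588934-95619247) to Polr3c (chr3:96711490-96727628), a span of 1.14 Mb, and its log2 changes had a median of −0.60 and ranged from −2.33 (Txnip) to −0.14 (Anp32e). Of the 28 genes, 22 were past the threshold, where 23% of all genes were called lower; nothing is read from this count, since the stretch was picked for values below 0 in the same contrast. The 21 members before the stretch had a median of −0.01, with 10 above 0 and 11 below. Of these 21, 7 were called lower (Tuft1, Rfx5, Pip5k1a, Vps72, Mllt11, Cdc42se1 and Cers2) and 5 higher (Snx27, Cgn, Selenbp1, Gabpb2 and Setdb1). Over all genes, 23% were called lower and 20.7% higher, and no result is drawn from these calls either. The 8 members after the stretch had a median of 0.09, with 5 above 0 and 3 below. The 3 genes within the span that the name rule left out, Mrps21 (−0.42), Hist2h2be (−0.83) and Itga10 (−0.57), also had log2 changes below 0. Under the same count and name rule, the longest stretch in 1 direction on each of the 19 other chromosomes was 7 to 18 genes long, with a median of 10. The one of 18 was on chromosome 11, from Ankrd13b to Supt6, and its genes were higher in Y-KO. Nothing is read from these lengths either, since the segment was chosen for lower values in the same contrast. With the trend of change on gene length and GC content taken out, the longest stretch was 17 members, because Anp32e then stood at 0.07. Stretches on the other chromosomes were not counted with that trend taken out, so the 17 has no like value beside it.

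Within the stretch the sizes were uneven, with log2 changes from −2.33 to −0.14. Over the whole segment, and not the stretch alone, adjacent members differed in log2 change by a median of 0.40 over 56 pairs. All pairs of members differed by 0.47 over 1596 pairs, and adjacent protein-coding genes on all chromosomes by 0.37 over 10625 pairs. A running median over 5 members was lowest at −1.03, around Txnip and its neighbour Gm16253. It was −1.01 around Golph3l, Ensa and Mcl1, and −0.28 around Plekho1, Vps45 and Otud7b, which lie between these places. A running median over 11 of the 506 genes of chromosome 3 had its lowest value, −0.84, at Adamtsl4 inside the segment. Its lowest value elsewhere on the chromosome was −0.62, at 2410004B18Rik, and its highest was 0.42, at Ubqln4. Because the segment was chosen for lower values in the same contrast, a lowest value inside it supports nothing further.

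**Figure D2:**
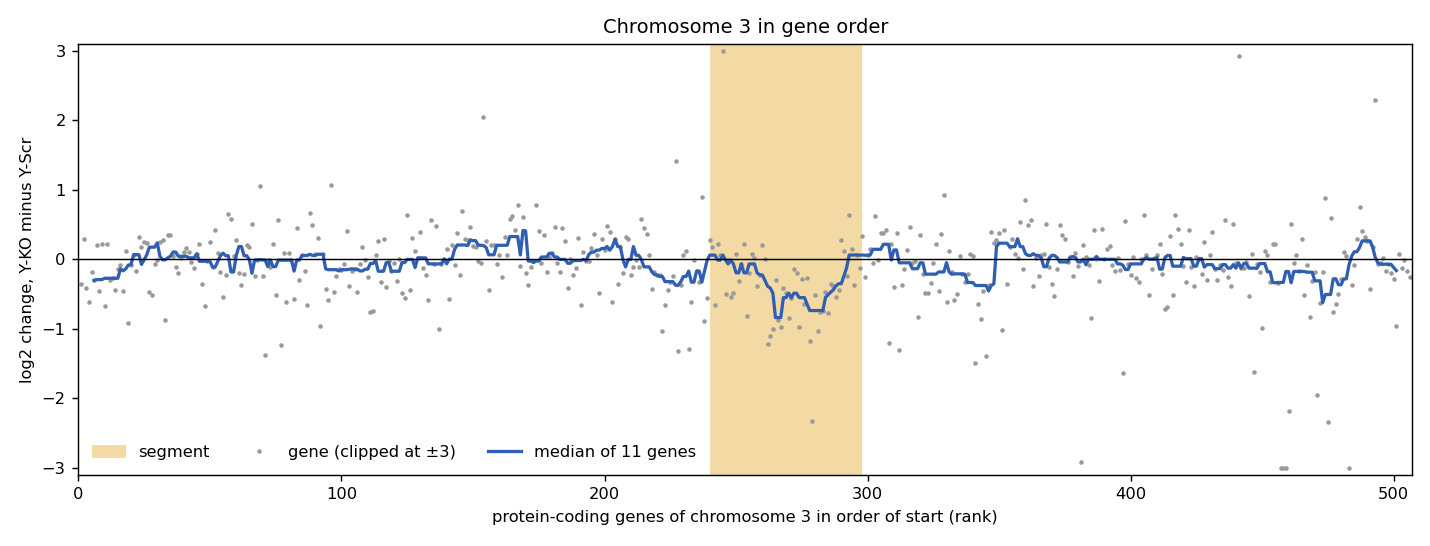
Log2 change, Y-KO minus Y-Scr, of the 506 protein-coding genes of chromosome 3 that meet the count and name rule (grey points, clipped at ±3, vertical axis) in order of start by rank (horizontal axis), with the median of 11 genes as a blue line and the segment shaded. The line falls to −0.84 inside the shaded segment and to −0.62 elsewhere on the chromosome. No result is drawn from this difference, since the segment was chosen for lower values in the same contrast.

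The libraries of a group were alike over the segment. The members summed to 3228, 3216 and 3188 CPM in the Y-KO libraries and 4409, 4398 and 4448 CPM in the Y-Scr libraries. The mean sum was 3211 ± 20.6 CPM in Y-KO and 4419 ± 26.2 CPM in Y-Scr (SD, n = 3 each); this describes the values that chose the members and supports nothing further. Without Txnip and Mcl1 the sum was 2895 ± 26.2 CPM in Y-KO and 3638 ± 38.6 CPM in Y-Scr. In the 3 Y-KO libraries, 37, 39 and 39 of the 57 members were below every Y-Scr library. Over all genes, 27.5% had every Y-KO library below every Y-Scr library, a stricter measure than these counts for single libraries. Nothing is read from the counts, since the same contrast chose the members. The median coefficient of variation of a member was 6.92% in Y-KO and 6.23% in Y-Scr, and 41 members in Y-KO and 45 in Y-Scr varied by under 10%. The widest spread in Y-KO was that of Tmod4, a muscle actin-capping protein, at 65.9%, and in Y-Scr that of Selenbp1, at 89.9%; both rested on few counts.

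**Figure D3:**
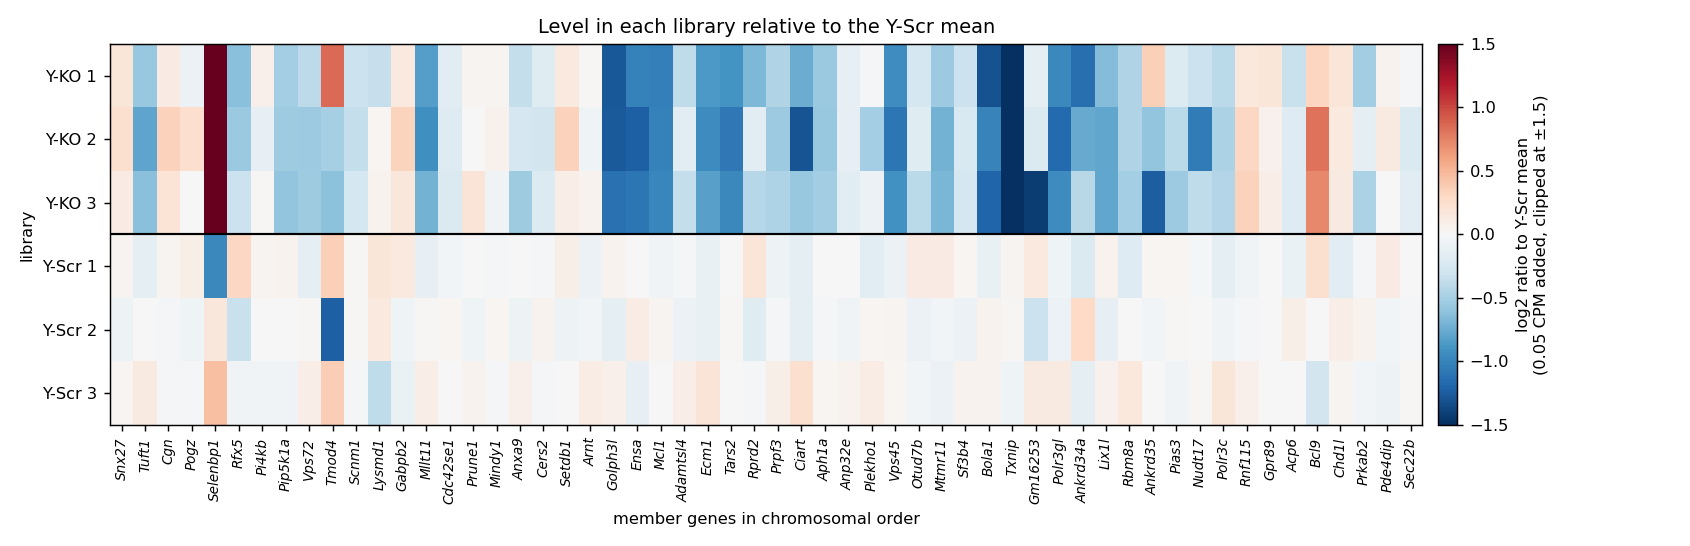
Level of 56 of the 57 members (columns, in chromosomal order) in each of the 6 libraries (rows, Y-KO above Y-Scr) as the log2 ratio of its CPM to the Y-Scr mean, with 0.05 CPM added to both and colours clipped at ±1.5. The 3 Y-KO rows share a mostly blue stretch from Golph3l to Polr3c, while the Y-Scr rows are pale, with the strongest colours at the low-count genes Selenbp1 and Tmod4.

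Among the genes of metabolism and redox, Txnip (ENSMUSG00000038393, chr3:96557957-96561883) had the lowest ratio of Y-KO to Y-Scr in the segment. Its level was 46.8, 48.7 and 49.96 CPM in the Y-KO libraries and 251, 247 and 234 CPM in the Y-Scr libraries. All 3 Y-KO libraries lay far below all 3 Y-Scr libraries, with a log2 change of −2.33 ± 0.07 (SE). Per kilobase of the deposited gene length, Txnip ranked 16 among the members in Y-KO, at 15.5 CPM per kb, and 3 in Y-Scr, at 78.1 CPM per kb. The antisense gene Gm15441, which overlaps all of Txnip, had 48 counts over the 6 libraries. Of the 10 members in this list, 8 had a log2 change below 0 and 2 above 0, with a median of −0.46.

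Other members of this list moved in either direction. Bola1, a mitochondrial protein linked to iron-sulfur clusters, had 16.5, 20.4 and 17.8 CPM in Y-KO and 38.0, 42.5 and 42.4 CPM in Y-Scr, a log2 change of −1.17 ± 0.10. Its groups did not overlap, nor did those of Tars2, the mitochondrial threonyl-tRNA synthetase (−0.97 ± 0.07). Cers2, which makes very-long-chain ceramides and ranked 2 per kilobase in both groups, had 270, 253 and 267 CPM in Y-KO and 301, 320 and 302 CPM in Y-Scr (−0.22 ± 0.06). Prkab2, a subunit of the energy sensor AMPK near the segment's far end, had 7.41, 9.65 and 7.65 CPM in Y-KO and 10.5, 11.01 and 10.4 CPM in Y-Scr (−0.37 ± 0.15). The groups of these genes did not overlap. Selenbp1, a selenium-binding methanethiol oxidase, went the other way and was barely detected: it had 1.18, 1.56 and 1.64 CPM in Y-KO and 0, 0.0605 and 0.0835 CPM in Y-Scr. That is 76 counts in Y-KO and 3 counts in Y-Scr, a ratio of 27.2 with an exact 95% interval of 8.97 to 135 for counting error only, and the gene passed the low-count filter through its Y-KO counts.

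Genes elsewhere in the genome that work with TXNIP or AMPK were tested across all 12907 genes with edgeR. Their values did not choose the segment, but all partner lists were drawn up with earlier results of these data known. Counts of called partners here and below are therefore a description. Of 10 tested relatives, regulators and thioredoxins, 2 rose and 3 fell, where 20.7% of all genes were called higher and 23% lower, so the counts are near the background. Txnrd1, the cytosolic thioredoxin reductase, rose by a log2 change of 0.39 (adjusted p = 3.02e-05), with 326, 322 and 329 CPM in Y-KO and 255, 249 and 243 CPM in Y-Scr. Arrdc3, an arrestin-fold relative of TXNIP, fell with a log2 change of −0.54 (adjusted p = 0.000405), and Mlx, the MondoA partner, with one of −0.36 (adjusted p = 0.00101). Arrdc2 changed by −0.44 (adjusted p = 0.0137) and Mlxip, which encodes MondoA, by 0.28 (adjusted p = 0.0126), and both thioredoxin Txn1 and the glucose transporter Slc2a1 stood at 0.10, not past the threshold (adjusted p = 0.267 for Txn1 and 0.175 for Slc2a1). With the length and GC trend taken out, the calls for Mlx (−0.15) and Mlxip (0.10) were lost, and that for Mlxip also without Y-KO replicate 2. Of 5 tested AMPK subunits 2 fell: Prkag1 by a log2 change of −0.44 (adjusted p = 0.000887) and Prkab1 by −0.25 (adjusted p = 0.0186), the second of which was lost when Y-KO replicate 2, Y-KO replicate 3 or Y-Scr replicate 3 was left out.

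Among the survival genes, Mcl1 (ENSMUSG00000038612, chr3:95658788-95663176) was at 0.498 of its Y-Scr level. It had 263, 266 and 272 CPM in Y-KO and 518, 552 and 539 CPM in Y-Scr, with a log2 change of −1.01 ± 0.06. The groups did not overlap, and Mcl1 kept the highest level per kilobase of all members in both, at 78.2 CPM per kb in Y-KO and 157 CPM per kb in Y-Scr. Its neighbour Ensa (chr3:95624993-95632102), whose protein inhibits the phosphatase PP2A-B55 in mitosis, had 153, 131 and 144 CPM in Y-KO and 309, 331 and 281 CPM in Y-Scr, a log2 change of −1.11 ± 0.07. Every Y-KO library again lay below every Y-Scr library.

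Of 14 tested genes of the BCL2 family and of MCL1 turnover, 3 rose and 3 fell, shares near those over all genes (20.7% called higher and 23% called lower). The risers were Huwe1, a ubiquitin ligase for MCL1 (log2 change 0.52, adjusted p = 0.0165), the death effector Bak1 (0.30, adjusted p = 0.00262) and the survival gene Bcl2 (0.42, adjusted p = 0.0158, a call lost without Y-KO replicate 3). The BH3-only genes Bik (−1.13, adjusted p = 0.000125), Bbc3 (−0.42, adjusted p = 0.00111) and Bcl2l11 (−0.37, adjusted p = 0.031) fell. Bcl2l1, the other main survival gene of the family, had a log2 change of −0.01 (adjusted p = 0.878), with 150, 148 and 154 CPM in Y-KO and 142, 150 and 164 CPM in Y-Scr.

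**Figure D4:**
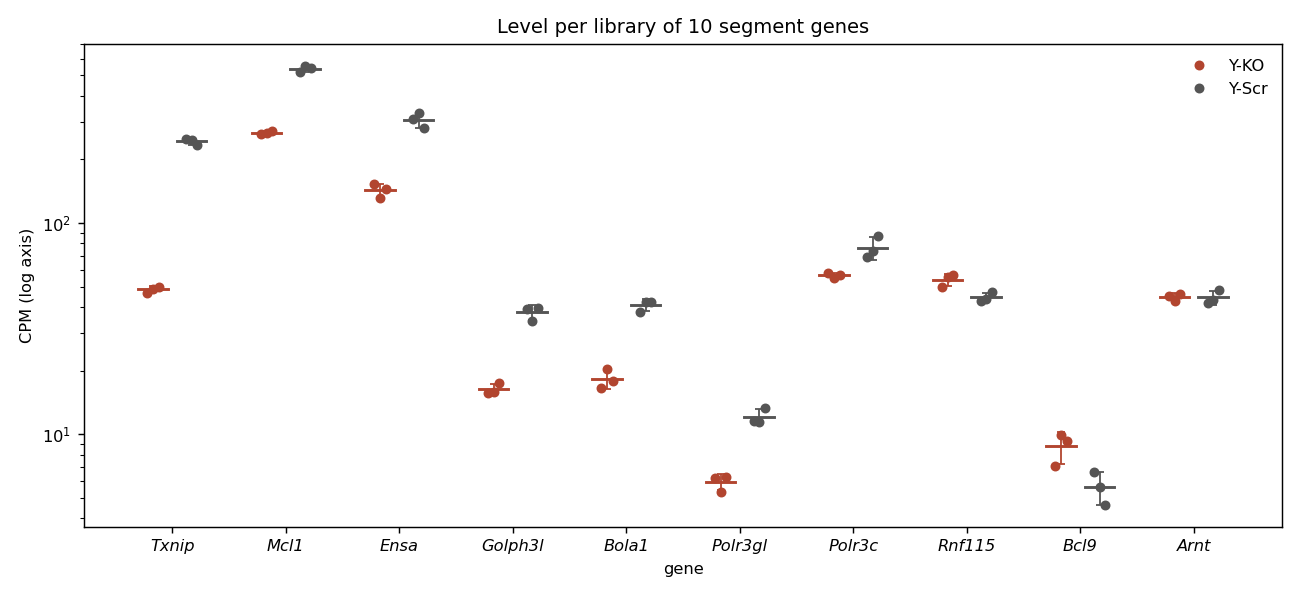
Level of 10 segment genes in each library, in CPM on a log axis (vertical), by gene (horizontal), with Y-KO in red to the left of Y-Scr in grey; points are libraries, bars the mean and SD (n = 3 each). Txnip is at 46.8 to 49.96 CPM in Y-KO and 234 to 251 CPM in Y-Scr, the groups overlap for Arnt alone among these genes, and Rnf115 and Bcl9 are higher in Y-KO.

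The members that act in the Golgi, endosomes and phosphoinositide metabolism were mixed: of 11, 8 had a log2 change below 0 and 3 above 0, with a median of −0.19. Golph3l, a Golgi protein that binds phosphatidylinositol 4-phosphate and the first gene of the lower stretch, had 15.6, 15.8 and 17.4 CPM in Y-KO and 39.2, 34.4 and 39.8 CPM in Y-Scr (−1.22 ± 0.10). Vps45, which regulates endosomal membrane fusion, had a log2 change of −0.97 ± 0.09, and Pip5k1a, which makes phosphatidylinositol 4,5-bisphosphate, one of −0.55 ± 0.06; neither had overlapping groups. Pi4kb, the kinase of the Golgi phosphatidylinositol 4-phosphate pool, overlapped fully, with 46.7, 40.7 and 44.9 CPM in Y-KO and 45.9, 44.8 and 42.8 CPM in Y-Scr (−0.01 ± 0.08).

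The ends of the segment carried genes of this kind as well. Snx27, a retromer-linked sorting nexin at the near end, had 112, 117 and 108 CPM in Y-KO and 102, 93.5 and 101 CPM in Y-Scr (0.18 ± 0.07). At the far end, Pde4dip, a Golgi and centrosome scaffold, had 222, 235 and 215 CPM in Y-KO and 233, 208 and 203 CPM in Y-Scr (0.06 ± 0.07); with the length and GC trend taken out it stood at −0.27 and was called lower. The last member, the SNARE protein gene Sec22b, had 65.6, 57.0 and 59.6 CPM in Y-KO and 66.3, 65.5 and 67.1 CPM in Y-Scr (−0.13 ± 0.08). The groups of Snx27 did not overlap, narrowly, and those of Pde4dip and Sec22b did.

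The 15 members of chromatin and transcription held genes on both sides of 0: 9 were below and 6 above, with a median of −0.38. Setdb1, a histone H3 lysine 9 methyltransferase 2 genes before the lower stretch, had 70.6, 81.0 and 68.6 CPM in Y-KO and 67.7, 60.3 and 63.3 CPM in Y-Scr (0.20 ± 0.08). Its next neighbour Arnt, the shared partner of the hypoxia and aryl hydrocarbon receptor factors, had 45.1, 42.6 and 46.1 CPM in Y-KO and 41.9, 43.2 and 48.1 CPM in Y-Scr (0.00 ± 0.09). The groups of Setdb1 were separated by less than 1 CPM, and those of Arnt overlapped. Pogz, a heterochromatin-associated factor, had 37.5, 47.4 and 39.4 CPM in Y-KO and 42.1, 38.1 and 38.8 CPM in Y-Scr (0.06 ± 0.10), also with overlap. Gabpb2, a subunit of the ETS-family complex GABP, had 87.7, 99.5 and 88.9 CPM in Y-KO and 88.0, 75.6 and 73.9 CPM in Y-Scr (0.22 ± 0.08), and its groups overlapped at 1 library each. Bcl9, a coactivator of beta-catenin beyond the far end of the lower stretch, had 7.04, 9.96 and 9.29 CPM in Y-KO and 6.64, 5.63 and 4.64 CPM in Y-Scr (0.65 ± 0.19), with no overlap.

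The lower members of this list included Mllt11 (−0.82 ± 0.10), the circadian repressor Ciart (−0.84 ± 0.17) and Vps72, a histone H2A.Z chaperone of the SRCAP and TIP60 complexes (−0.49 ± 0.08). Both of the segment's RNA polymerase III subunits were lower. Polr3gl had 6.18, 5.35 and 6.29 CPM in Y-KO and 11.6, 11.4 and 13.3 CPM in Y-Scr (−1.03 ± 0.15). Polr3c, the last gene of the lower stretch, had 58.0, 55.1 and 56.5 CPM in Y-KO and 68.8, 73.6 and 86.8 CPM in Y-Scr (−0.44 ± 0.08). Neither gene's groups overlapped.

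The partners of these chromatin and transcription genes elsewhere were tested in the same edgeR fit, with lists likewise drawn up with earlier results of these data known. Of 7 SETDB1 partners and other H3 lysine 9 methyltransferases, 6 rose, where 20.7% of all genes were called higher, and Setdb2 stood at −0.02 (adjusted p = 0.911). Trim28, the scaffold that recruits SETDB1, had 344, 353 and 338 CPM in Y-KO and 268, 238 and 252 CPM in Y-Scr (log2 change 0.45, adjusted p = 1.19e-05), and Atf7ip, which stabilises SETDB1, rose by 0.55 (adjusted p = 3.01e-05). Ehmt2 (0.41, adjusted p = 2.85e-05) and Ehmt1 (0.38, adjusted p = 0.00211), which dimethylate H3 lysine 9, also rose. Of 3 tested BCL9 partners, Bcl9l (0.91, adjusted p = 5.59e-07) and Pygo2 (0.37, adjusted p = 0.000846) rose. Of 3 ARNT partners, where 23% of all genes were called lower, Ahr fell with a log2 change of −0.46 (adjusted p = 0.00118), and Arnt2, at under 2 CPM in every library, with one of −1.43 (adjusted p = 0.0436). The Arnt2 call was lost in each fit that left out a library except the one without Y-KO replicate 3, and its change was −0.87 without Y-KO replicate 1.

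Of 9 tested genes of the VPS72 complexes, 2 rose and 2 fell, again near the 20.7% and 23% of all genes. The acetyltransferase Kat5 had 57.1, 58.5 and 61.5 CPM in Y-KO and 94.0, 107 and 102 CPM in Y-Scr (−0.78, adjusted p = 7.65e-08), while Ep400 rose by 0.56 (adjusted p = 0.000404) and Ruvbl1 by 0.27 (adjusted p = 0.00599). Znhit1 (−0.24, adjusted p = 0.0308) lost its call in fits without Y-Scr replicate 2 or 3 or Y-KO replicate 2 or 3. Of 8 RNA polymerase III subunits encoded elsewhere, Polr3a (0.58, adjusted p = 0.000166) and Polr3g, the paralog of Polr3gl (0.51, adjusted p = 0.000121), rose. Polr3g had 36.8, 37.1 and 36.4 CPM in Y-KO and 25.2, 24.6 and 27.4 CPM in Y-Scr, with no overlap.

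All 5 splicing and RNA members had a log2 change below 0, with a median of −0.47. Rbm8a, the Y14 subunit of the exon junction complex, had 93.9, 93.7 and 89.7 CPM in Y-KO and 112, 129 and 143 CPM in Y-Scr (−0.47 ± 0.08). Prpf3, of the U4/U6 particle, had a log2 change of −0.49 ± 0.07, Lix1l, an RNA-binding protein, one of −0.74 ± 0.08, and Sf3b4, of the U2 particle, one of −0.27 ± 0.06. The groups did not overlap for any of the 5, where 52.9% of all genes did not overlap, and nothing is read from this, since the same contrast chose the members. Of 4 genes for other exon junction proteins, Casc3 rose (0.25, adjusted p = 0.0137) and Magoh, which pairs with RBM8A, fell (−0.20, adjusted p = 0.0306). Over all genes, 20.7% were called higher and 23% lower. The Magoh call was lost without Y-Scr replicate 2 or without any 1 of the Y-KO libraries. With the length and GC trend taken out its change turned to 0.17 and was called higher. The Casc3 call was lost without Y-KO replicate 2 or 3. Of 5 other SF3B genes, beside the same shares over all genes, Sf3b2 (0.46, adjusted p = 1.37e-05), Sf3b3 (0.29, adjusted p = 0.00154) and Sf3b1 (0.22, adjusted p = 0.00508) rose. Sf3b6 fell (−0.38, adjusted p = 0.000351), but was −0.07 and not called with the length and GC trend taken out.

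Of the 6 surface, matrix and junction members, 5 had a log2 change below 0 and 1 above, with a median of −0.47. Ecm1, a secreted matrix protein, had 68.8, 65.3 and 71.1 CPM in Y-KO and 116, 116 and 143 CPM in Y-Scr (−0.88 ± 0.08). Aph1a, a subunit of the membrane protease gamma-secretase, had a log2 change of −0.55 ± 0.06. Tuft1, second in the segment, had 38.5, 33.1 and 37.1 CPM in Y-KO and 51.8, 56.8 and 62.7 CPM in Y-Scr (−0.66 ± 0.09), and Cgn, the tight junction protein cingulin and the third member, had 37.4, 43.8 and 39.8 CPM in Y-KO and 35.5, 33.8 and 34.0 CPM in Y-Scr (0.23 ± 0.09). These neighbours went in opposite directions, each without overlap. Of 5 tested gamma-secretase genes elsewhere, Psenen fell (−0.30, adjusted p = 0.00416), where 23% of all genes were called lower. With the trend taken out Psenen stood at −0.14 and was not called.

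The 3 ubiquitin members had a median of 0.02. Mindy1, a deubiquitinase, had 124, 127 and 116 CPM in Y-KO and 120, 124 and 119 CPM in Y-Scr (0.02 ± 0.06), and Otud7b, also a deubiquitinase, had a log2 change of −0.28 ± 0.07. Rnf115, a ubiquitin ligase (chr3:96727664-96791638), had 49.6, 55.3 and 56.6 CPM in Y-KO and 42.9, 43.7 and 47.0 CPM in Y-Scr (0.27 ± 0.08). Every Y-KO library of Rnf115 lay above every Y-Scr library. The 5 members in no list, among them Tmod4 and Ankrd35, had a median of −0.35, and their summed level was 6.64 CPM in Y-KO and 8.50 CPM in Y-Scr. Over all partner lists, 21 of 73 tested genes rose and 15 fell, with a median log2 change of 0.03, where 20.7% of all genes were called higher and 23% lower.

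The far end of the lower stretch fell between a pair of divergent genes. Polr3c is read from the minus strand and Rnf115 from the plus strand, with 36 bases between their starts, and the Rnf115 window printed above holds the Polr3c start at position 96727628. Polr3c changed by −0.44 ± 0.08 and Rnf115 by 0.27 ± 0.08. The divergent pairs with the next closest starts were Scnm1 with Lysmd1 (77 bases apart, −0.31 ± 0.14 and −0.07 ± 0.28) and Prune1 with Mindy1 (overlapping, 0.08 ± 0.09 and 0.02 ± 0.06). Neither pair was past the threshold in either gene, and 3 of the 4 changes were smaller than their SE. Mllt11 and Cdc42se1 also overlap head to head, with starts farther apart, and both were called lower (−0.82 ± 0.10 and −0.19 ± 0.07).

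Properties of the members were set beside their changes as a description, with members sharing the same 6 libraries. The log2 change had a Spearman rho of 0.37 and a Pearson r of 0.13 with log gene length over the 57 members, and a rho of 0.43 and an r of 0.39 over the 56 without Selenbp1. With GC content the rho was 0.00 and the r 0.11. With the trend of all genes on length and GC content taken out, 42 members were again below 0 and the median was −0.30, while that of all genes moved to 0.06; the part of length in the order along the chromosome was not tested. Of the members, 24 overlap another gene with at least 10 counts, 21 of them on the opposite strand, and 6 pairs of members overlap each other that way, among them Mllt11 with Cdc42se1, Cers2 with Setdb1, and Gm16253 with Polr3gl. How strand was treated in counting was not known here, so the values of these genes are uncertain to that extent.

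The genes at the borders of the rule were as follows. Before the interval stood Them4 with a log2 change of −0.89 and Tdrkh with 0.28, and after it Notch2 with 0.34, Phgdh with −0.25 and Zfp697 with 0.18. Just inside the count minimum were Tmod4 with 73 counts, Selenbp1 with 79 and Ankrd35 with 85, and just outside it Sema6c with 55 and Celf3 with 37. Of the 7 genes of the interval left out by name that had 60 counts or more, 6 had a log2 change below 0, with a median of −0.35; the exception was Zfp687, at 27.4, 29.4 and 26.3 CPM in Y-KO and 19.6, 16.6 and 19.1 CPM in Y-Scr (0.59). The proteasome genes Psmb4 (−0.35) and Psmd4 (−0.13) and the mitochondrial ribosomal gene Mrpl9 (−0.16) were among the 6. The 13 non-coding genes of the interval that were tested had a median of 0.03, with 7 above 0 and 6 below.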

How the data were processed

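Gene counts were deposited by the authors as whole-number read counts per gene and library, without normalization. The submitters' processing notes name STAR 2.5.2b, featureCounts 1.5.3, Trimmomatic 0.39 and DESeq2, for quality control MultiQC 1.13 and FastQC 0.12.1, and as builds mm39 and GRCm39. Of 54409 genes also in a GRCm38 annotation (GENCODE), 53499 (98.3%) lay at identical positions there, and coordinates are therefore given as GRCm38.

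Counts were scaled by TMM and filtered with filterByExpr, and 12907 genes were fitted by edgeR 4.0.16 (R 4.3.3, quasi-likelihood, robust) on all 6 libraries with group as the only term. Fold changes are Y-KO over Y-Scr, and p-values were Benjamini-Hochberg adjusted over all genes at 0.05. The fitting script was tested on simulated counts. No library of a group repeated another: chi-square divided by its degrees of freedom was 3.44 to 14.8 for pairs. Totals per library were 15698510 to 24633158 counts, so 3 counts, the floor, stood at 0.125 to 0.190 CPM. Intervals and floors cover counting error only.

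The members, the role lists and the partner lists were chosen with earlier results of these data known. Values per library were given for Txnip and Mcl1, the 6 largest rises and falls, the 4 smallest changes, the 4 highest levels, the 3 genes at each end, and up to 4 partners per list by smallest adjusted p; others named with values were picked after these were seen. A few genes that these rules cover, 1 member among them, are not reported here by name; they remain in the counts, sums and medians. Mindy1 stood in 2 lists under an old and a new symbol and was kept with ubiquitin. Alternatives were other scalings, filters, tools (DESeq2 1.42.0, limma 3.58.1), a length and GC trend (spline with 4 degrees of freedom), a replicate block, other member rules and each library left out.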

Additional observations from a re-analysis of the deposited data

How the results depend on the processing

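The 42 members below 0 stayed between 41 and 43 in every fit of these members, the members called lower between 26 and 33, against 29, and the median between −0.40 and −0.30, against −0.37. The median was −0.30 with the length and GC trend taken out and −0.40 to −0.30 with 1 library left out. The higher members were the unsteady ones. The 7 calls became 3 with that trend taken out and 3 with the replicate block, and ranged from 1 to 7 with 1 library left out (1 without Y-KO replicate 2, 4 without Y-KO replicate 3, 3 without Y-Scr replicate 2, 4 without Y-Scr replicate 3); the cause was not tested. The unbroken stretch was 28 members long, 27 to 29 in the other fits, and 17 with the trend taken out; it was computed after its value in the main result had been seen. The trend removal also moved the split of all calls to 3167 higher and 2356 lower, against 2667 higher and 2966 lower. Of the 57 members, 48 kept their sign in every fit, and the 9 others had changes of at most 0.14 in size as reported; among these, Tmod4 stood at −0.63 without Y-KO replicate 1 and Pde4dip at −0.27, called lower, with the trend taken out.

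Replicate numbers did not pair the samples: deviations of same-numbered libraries correlated at −0.06, −0.03 and −0.02 over 12907 genes. With the replicate block, 2333 genes were called higher and 2627 lower, 28 members lower, with a segment median of −0.39, and 21 partner genes higher and 12 lower. Partner genes ranged from 18 to 24 higher and 10 to 14 lower with 1 library left out. The length and GC trend moved them most: with it taken out 29 were called higher and 11 lower, against 21 and 15 as reported. All genes then stood at 3167 higher and 2356 lower. Changes of sign were few: Eif4a3, at 0.00, turned to −0.00252 without a low-count filter, to −0.00401 among protein-coding genes alone, and ranged from −0.0622 to 0.0617 with 1 library left out. With the trend taken out Hif1a stood at 0.0581, not called, and Magoh at 0.17, called higher. Of 1483 values of single genes under the alternatives, 1396 kept their side of the threshold or stayed within the replicate spread. Depth limits the genes near 1 CPM, such as Tmod4, Ankrd35 and Selenbp1.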
